A study of Arabidopsis thaliana with 6 samples.

Results

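WRKY genes encode the WRKY family of plant transcription factors. The 70 members described here are the genes whose name in the deposited gene table holds WRKY followed by a number, out of 33557 genes in that table. The table writes 8 of them with AT in front, and the plain form is used below for all. Total RNA came from whole seedlings of Arabidopsis thaliana, ecotype Columbia, aged 10 days and grown on MS medium with sucrose. There were 3 libraries labelled CPL4RNAi, described as a knockdown of the RNA polymerase II C-terminal domain phosphatase CPL4 by RNA interference, and 3 libraries of the wild type Col. The sources used here do not give the promoter of the RNA interference construct or the number of independent lines, nor say whether libraries of a genotype came from separate cultures, so the p-values may measure technical spread.

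For each gene, the deposited table of the authors holds 1 FPKM value per genotype (fragments scaled by transcript length and library size, pooled over the 3 libraries) and 1 p-value and q-value from their own test. No value of a single library was available for these genes, so no spread between replicates can be given, and every level, p and q below comes from the authors' deposited table. A gene is called higher or lower in CPL4RNAi where the authors' q was under 0.05, and is said to have risen or fallen only then. The lowest q in the table is 6.39e-04, a floor set by the lowest p of 5.00e-05, which 1411 genes share. CPL4 itself stood at 8.84 FPKM in CPL4RNAi and at 4.92 FPKM in Col (q = 6.39e-04 in the authors' deposited table). By the rule above the labelled target was called higher, not lower, and each direction below rests on the library labels. In whole seedlings, fewer cells of a type and less RNA per cell cannot be told apart.

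WRKY factors bind DNA through a conserved domain marked by the peptide WRKYGQK and followed by a zinc finger. Their usual DNA target is the W-box, built around the bases TTGAC, which also stands in the promoters of many WRKY genes, so that members can act on each other. They are best known in plants for immunity to bacteria and fungi, and also for senescence, abiotic stress, phosphate supply and development. Group I proteins carry a pair of WRKY domains, group II proteins a single one with the same type of finger, and group III proteins a single one with a different finger. Group II is divided into IIa to IIe by sequence.

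The peptide that names the family is shown as coding DNA for the 3 members of group IIa, for the pair with the largest called ratios, and for the 3 members that carry a variant. Each line runs 5′ to 3′ on the coding strand of the gene, from the RefSeq annotation of assembly TAIR10.1, with the 21 bases of the peptide in capitals.
WRKY18, chr4:15384301-15384351, plus strand: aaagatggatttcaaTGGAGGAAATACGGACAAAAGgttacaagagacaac
WRKY40, chr1:30384774-30384824, plus strand: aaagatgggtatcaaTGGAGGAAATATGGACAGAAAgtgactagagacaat
WRKY60, chr2:10630628-10630678, plus strand: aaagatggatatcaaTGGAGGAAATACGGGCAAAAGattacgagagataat
WRKY38, chr5:7496187-7496237, minus strand: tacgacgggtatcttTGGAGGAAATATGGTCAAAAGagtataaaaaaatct
WRKY46, chr2:19044298-19044348, minus strand: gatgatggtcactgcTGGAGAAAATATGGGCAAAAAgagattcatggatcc
WRKY50, chr5:9147564-9147614, minus strand: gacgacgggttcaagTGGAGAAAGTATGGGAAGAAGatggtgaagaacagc
WRKY51, chr5:25908849-25908899, plus strand: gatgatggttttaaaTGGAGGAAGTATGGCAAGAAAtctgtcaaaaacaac
WRKY59, chr2:9335747-9335797, minus strand: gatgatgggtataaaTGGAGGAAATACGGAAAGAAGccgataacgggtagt
WRKY18, WRKY40, WRKY60, WRKY38 and WRKY46 encode WRKYGQK there, and WRKY50, WRKY51 and WRKY59 encode WRKYGKK. Translation of the longest annotated coding sequence of each of the 70 genes gave 78 copies of WRKYGQK and 3 of WRKYGKK. A pair of copies was found in 11 of 13 group I genes, the exceptions being WRKY10 and WRKY19, and a single copy in every gene of groups II and III. The finger of group III was found in 13 of 14 genes labelled III, all but WRKY52, and in none of the other groups. WRKY23 and WRKY45, which the RefSeq notes place in group I, each encode 1 copy and are counted in IIc here.

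Of the 70 members, 42 reached 1 FPKM in at least 1 genotype and count as expressed, and 28 stayed below it in both. All 42 expressed members were tested by the authors and none of the 28 others. Over the whole table, too, all 18038 tested genes had reached 1 FPKM, so members and other tested genes passed the same floor. Expressed were 9 of 13 group I genes, 3 of 3 in IIa, 4 of 8 in IIb, 7 of 17 in IIc, 6 of 7 in IId, 7 of 8 in IIe and 6 of 14 in group III. The members just above the floor were WRKY35, whose higher level was 1.13 FPKM, WRKY28 with 1.24 FPKM and WRKY29 with 1.75 FPKM. Just below it were WRKY27 with 0.955 FPKM, WRKY31 with 0.902 FPKM and WRKY61 with 0.881 FPKM.

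Of the 42 tested members, 20 were called higher and 1 lower in the authors' deposited table. That is 47.6% called higher, where 12.7% of all 18038 tested genes were, and 2.38% called lower, where 9.78% were. At least a 2-fold rise was called for 11 of the 42 tested members, against 704 of all 18038 tested genes (3.9%). Of these 11, WRKY38, WRKY46 and WRKY48 were under 1 FPKM in Col. The ratio of CPL4RNAi to Col was above 1 for 33 expressed members and below 1 for 9. The median log2 ratio of the expressed members was 0.57, and that of all tested genes was −0.00. Of the 42, 6 passed the floor only through CPL4RNAi and 0 only through Col. Among the 36 at or above 1 FPKM in both genotypes, 17 were called higher and 1 lower, with a median log2 ratio of 0.49. The share of all genes called under that filter was not computed. Chromosome 2 held 8 of the 20 called higher among its 15 members, chromosomes 1 and 5 held 4 each among 16 and 17, chromosome 4 held 3 among 16 and chromosome 3 held 1 among 6. The members counted per chromosome include untested ones. Shares of all tested genes called on each chromosome were not computed, so no concentration can be read from these counts. The FPKM of all 70 members summed to 397 in CPL4RNAi and to 271 in Col.

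**Figure D1:**
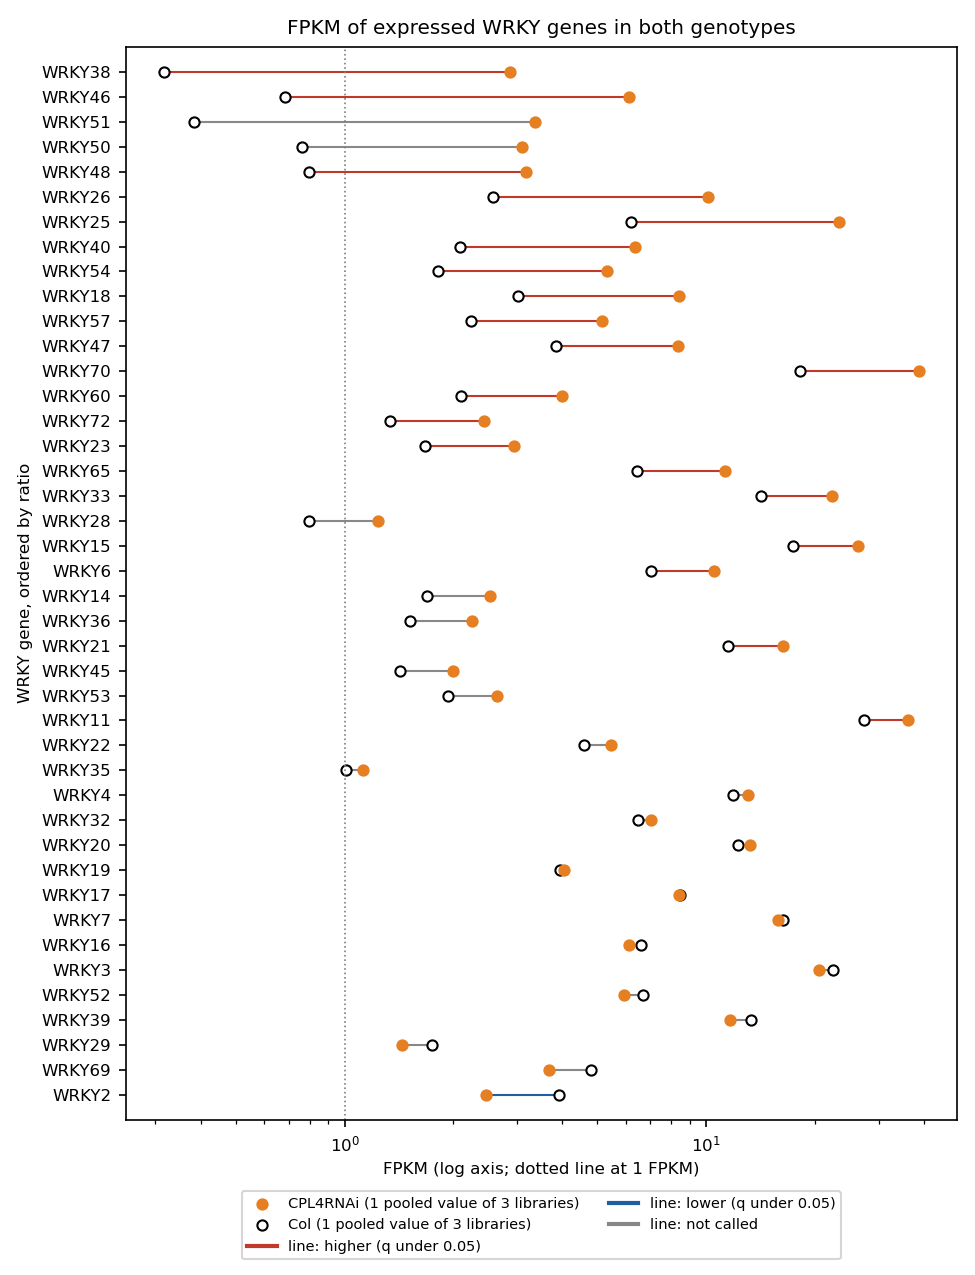
FPKM of the 42 expressed WRKY genes on a log axis, with filled points for CPL4RNAi and open points for Col, 1 pooled value per genotype and no error available; genes are ordered by their ratio and the line colour gives the authors' call. The 20 genes called higher lie between WRKY38 at the top and WRKY11, with 7 genes not called among them, and WRKY2 at the bottom is the 1 gene called lower.

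**Figure D2:**
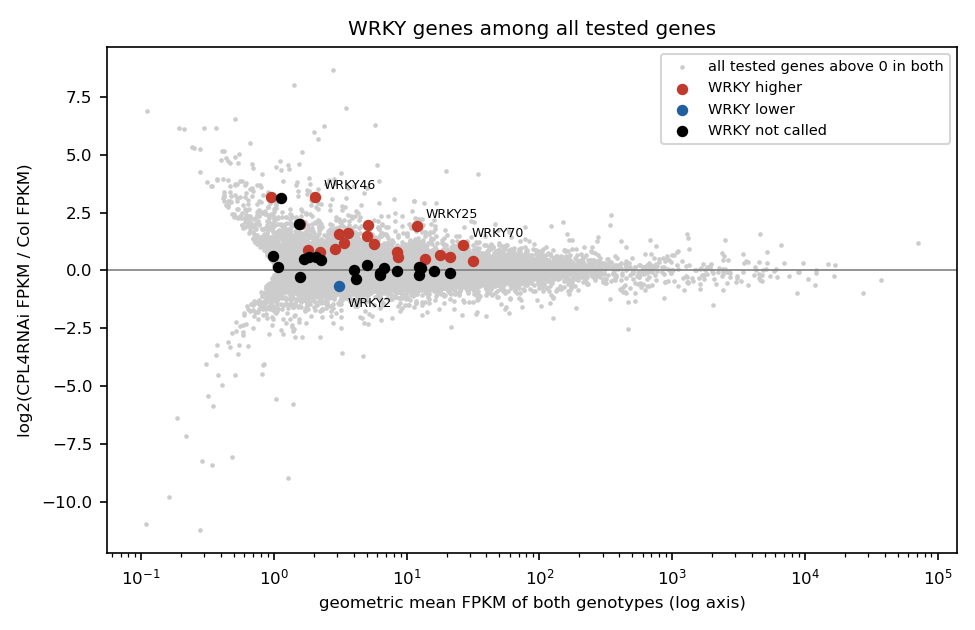
Log2 ratio of CPL4RNAi over Col against the geometric mean FPKM of both genotypes (log axis) for all tested genes above 0 in both (grey) and the expressed WRKY genes (coloured by call). The WRKY genes lie mostly above the line at 0, with WRKY46 at 3.16 and WRKY2 at −0.68.

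Group III holds the members tied most closely to salicylic acid, the hormone of defence against biotrophic pathogens, and it held the pair with the largest called ratios. WRKY46, a salicylic acid-induced gene that acts with WRKY54 and WRKY70, stood at 6.11 FPKM in CPL4RNAi and at 0.683 FPKM in Col (8.96-fold, q = 6.39e-04 in the authors' deposited table). WRKY38, which together with WRKY62 restrains basal defence, stood at 2.86 FPKM in CPL4RNAi and at 0.316 FPKM in Col (9.07-fold, q = 0.0354 in the authors' deposited table). WRKY46 lies at chr2:19043414-19044826 and WRKY38 at chr5:7495539-7496784 (TAIR10). Both were under 1 FPKM in Col, so their ratios rest on low values.

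WRKY70, a switch between the salicylic acid and jasmonate pathways, had the highest level of the family in CPL4RNAi, with 38.8 FPKM there and 18.1 FPKM in Col (2.14-fold, q = 6.39e-04 in the authors' deposited table). In Col, WRKY11 and WRKY3 were above it. The closest relative of WRKY70, WRKY54 (53.1% of residues identical) had 5.32 FPKM in CPL4RNAi and 1.81 FPKM in Col (2.93-fold, q = 6.39e-04 in the authors' deposited table). These 4 were the group III genes called higher among 6 expressed. WRKY53, a regulator of leaf senescence, had 2.63 FPKM in CPL4RNAi and 1.94 FPKM in Col and was not called (authors' deposited table, q = 0.667). Its deposited locus also holds AT4G23800, which was called lower, with 18.8 FPKM in CPL4RNAi and 33.9 FPKM in Col in the authors' deposited table. WRKY52, also known as the immune receptor RRS1, had 5.91 FPKM in CPL4RNAi and 6.69 FPKM in Col and was not called (authors' deposited table, q = 0.396).

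The remaining 8 group III genes were not expressed. WRKY62, the partner of WRKY38, stood at 0.349 FPKM in CPL4RNAi and at 0.0435 FPKM in Col. WRKY55, which lies just before WRKY54 on chromosome 2, stood at 0.289 FPKM in CPL4RNAi and at 0.0431 FPKM in Col. WRKY41, a near relative of WRKY53, stood at 0.320 FPKM in CPL4RNAi and at 0.686 FPKM in Col. Of the others, WRKY30, WRKY63 and WRKY66 were at or under 0.299 FPKM in both genotypes, and WRKY64 and WRKY67 were listed at 0 in both. None of these 8 was tested. WRKY63 and WRKY64 shared 74.3% of residues, so reads that match both may have been split between them in a way that is unknown here.

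All 3 members of group IIa rose. Their loci lie at chr4:15383201-15385029 for WRKY18, chr1:30383691-30387522 for WRKY40 and chr2:10629737-10631413 for WRKY60 (TAIR10). WRKY18, WRKY40 and WRKY60 bind each other and act with partly shared duties as restraints on basal defence and in abscisic acid signalling. WRKY18 had 8.42 FPKM in CPL4RNAi and 3.02 FPKM in Col (2.79-fold, q = 6.39e-04 in the authors' deposited table). WRKY40 had 6.34 FPKM in CPL4RNAi and 2.09 FPKM in Col (3.03-fold, q = 0.0378 in the authors' deposited table). WRKY60 had 3.99 FPKM in CPL4RNAi and 2.09 FPKM in Col (1.91-fold, q = 0.00718 in the authors' deposited table). The call of WRKY40 was the one nearest to the threshold among all 20, although its ratio was the largest of the trio, and its locus in the table also holds AT1G80850, which was not called.

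In group I, a trio known for heat tolerance rose while most other expressed members were not called. WRKY25 had 23.3 FPKM in CPL4RNAi and 6.19 FPKM in Col (3.76-fold, q = 6.39e-04 in the authors' deposited table). WRKY26 had 10.1 FPKM in CPL4RNAi and 2.58 FPKM in Col (3.91-fold, q = 6.39e-04 in the authors' deposited table). WRKY33, which drives camalexin synthesis and resistance to Botrytis, had 22.3 FPKM in CPL4RNAi and 14.2 FPKM in Col (1.57-fold, q = 6.39e-04 in the authors' deposited table). WRKY26 and WRKY33 are each other's closest relative in the family, with 57.9% of residues identical, and their ratios were not the same size. The locus of WRKY33 also holds AT2G38480, which was not called.

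WRKY2 was the 1 member that fell. This gene, which acts in zygote polarity, pollen and seed germination, had 2.46 FPKM in CPL4RNAi and 3.92 FPKM in Col (log2 ratio −0.68, q = 0.00295 in the authors' deposited table). Its relative WRKY34, a pollen gene, was not expressed. The 5 other expressed members of group I were WRKY3, WRKY4, WRKY19, WRKY20 and WRKY32. WRKY3 had 20.4 FPKM in CPL4RNAi and 22.4 FPKM in Col, and WRKY4, which acts with it against necrotrophs, had 13.0 FPKM in CPL4RNAi and 11.9 FPKM in Col. Neither was called (q = 0.523 and 0.544 in the authors' deposited table), and WRKY19, WRKY20 and WRKY32 had log2 ratios of 0.04, 0.11 and 0.11. Group I thus held both the fall and 3 rises, and its median log2 ratio was 0.11.

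**Figure D3:**
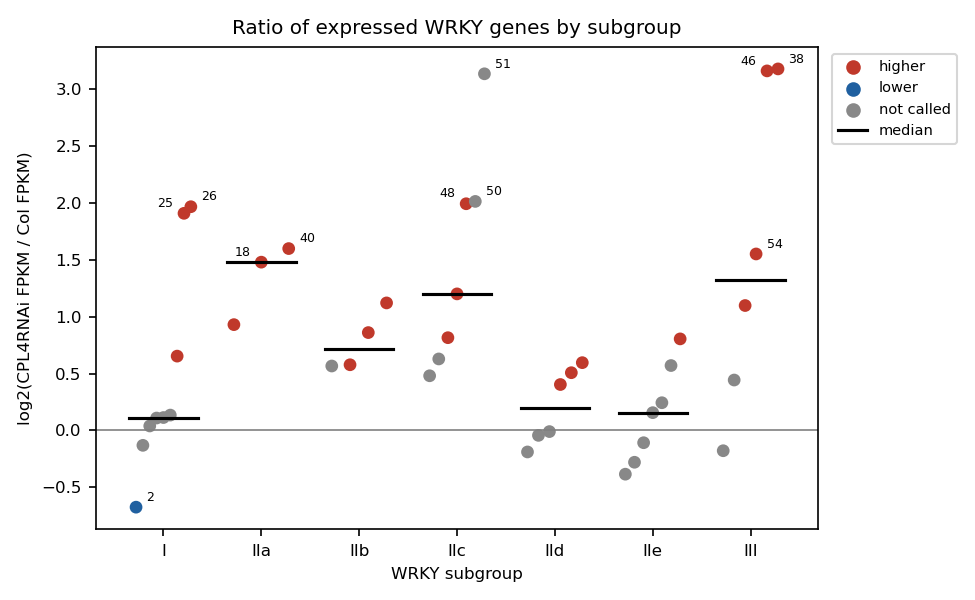
Log2 ratio of CPL4RNAi over Col for each expressed WRKY gene by subgroup, coloured by the authors' call, with the subgroup median as a bar and member numbers beside ratios above 1.4 or called lower. The medians are 0.11 in I, 1.48 in IIa, 0.72 in IIb, 1.20 in IIc, 0.20 in IId, 0.16 in IIe and 1.33 in III. Those of IIc and III are raised by members that passed the floor only through CPL4RNAi. These are WRKY28, WRKY48, WRKY50 and WRKY51 in IIc, and WRKY38 and WRKY46 in III. The rest of IIc had 1.20 (WRKY57), 0.82 (WRKY23) and 0.48 (WRKY45). The rest of III had 1.55 (WRKY54), 1.10 (WRKY70), 0.44 (WRKY53) and −0.18 (WRKY52).

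Group IIc held the largest number of genes and the most genes under 1 FPKM. WRKY48, a restraint on basal resistance, rose to 3.17 FPKM in CPL4RNAi, against 0.795 FPKM in Col (3.98-fold, q = 6.39e-04 in the authors' deposited table). WRKY57, a gene of drought tolerance, had 5.15 FPKM in CPL4RNAi and 2.24 FPKM in Col (2.30-fold, q = 6.39e-04 in the authors' deposited table). WRKY23, which acts in auxin-dependent development and nematode feeding sites, had 2.94 FPKM in CPL4RNAi and 1.67 FPKM in Col (1.76-fold, q = 0.0133 in the authors' deposited table).

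The pair with the WRKYGKK peptide, WRKY50 and WRKY51, had large ratios that were not called. Both are known for dampening jasmonate responses. WRKY51 had 3.37 FPKM in CPL4RNAi and 0.383 FPKM in Col (8.80-fold, q = 0.159 in the authors' deposited table). WRKY50 had 3.09 FPKM in CPL4RNAi and 0.764 FPKM in Col (4.04-fold, q = 0.120 in the authors' deposited table). WRKY59, the other gene with that peptide, was at 0.610 FPKM in CPL4RNAi and listed at 0 in Col, and was not tested. WRKY28, an activator of the salicylic acid synthesis gene ICS1, and WRKY45, a phosphate uptake regulator, had log2 ratios of 0.63 and 0.48 and were not called. The 9 other IIc genes under 1 FPKM included WRKY75, a gene of the phosphate starvation response, at 0.447 FPKM in CPL4RNAi and 0.467 FPKM in Col, and WRKY13 at 0.242 FPKM in CPL4RNAi and 0.762 FPKM in Col.

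In group IIb, 3 of 4 expressed genes rose. WRKY47 had 8.38 FPKM in CPL4RNAi and 3.85 FPKM in Col (2.18-fold, q = 6.39e-04 in the authors' deposited table). WRKY6, which represses the phosphate exporter gene PHO1 and acts in senescence, had 10.5 FPKM in CPL4RNAi and 7.04 FPKM in Col (1.49-fold, q = 0.00295 in the authors' deposited table). WRKY72, a gene of basal immunity, had 2.43 FPKM in CPL4RNAi and 1.34 FPKM in Col (1.82-fold, q = 0.0141 in the authors' deposited table). WRKY36 was not called, and WRKY9, WRKY31, WRKY42 and WRKY61 were between 0.385 and 0.902 FPKM in both genotypes.

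The median log2 ratio of the expressed genes was 0.20 in group IId and 0.16 in group IIe. The IId proteins bind calmodulin, and their genes included WRKY11, a restraint on basal resistance, with 36.2 FPKM in CPL4RNAi and 27.3 FPKM in Col (1.32-fold, q = 0.0244 in the authors' deposited table). Its closest relative WRKY17 (76.3% of residues identical), which shares that duty, had 8.40 FPKM in CPL4RNAi and 8.45 FPKM in Col (q = 0.977 in the authors' deposited table). WRKY15, a regulator of growth under osmotic stress, had 26.2 FPKM in CPL4RNAi and 17.4 FPKM in Col (1.51-fold, q = 6.39e-04 in the authors' deposited table). WRKY21 also rose, with 16.3 FPKM in CPL4RNAi and 11.5 FPKM in Col (1.42-fold, q = 0.00448 in the authors' deposited table), while WRKY7 and WRKY39 had log2 ratios of −0.04 and −0.19.

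Of the 7 expressed IIe genes, WRKY65 alone was called, with 11.3 FPKM in CPL4RNAi and 6.46 FPKM in Col (1.75-fold, q = 6.39e-04 in the authors' deposited table). Its closest relative WRKY69 had 3.67 FPKM in CPL4RNAi and 4.79 FPKM in Col and was not called (authors' deposited table, q = 0.370). The locus of WRKY69 also holds AT3G58720, which was not called. WRKY22 and WRKY29, both placed in the response to bacterial flagellin, had log2 ratios of 0.24 and −0.28 and were not called either. WRKY14, WRKY16 and WRKY35 had log2 ratios of 0.57, −0.11 and 0.16.

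Close relatives did not always receive the same call. Translated sequences gave 18 pairs of members that were each other's closest relative, and in 8 of these pairs both genes were expressed. Both genes were called higher in 3 pairs, WRKY18 with WRKY60, WRKY26 with WRKY33 and WRKY54 with WRKY70. In 2 pairs 1 gene alone was called higher, WRKY11 but not WRKY17 and WRKY65 but not WRKY69. In the other 3 pairs, WRKY3 with WRKY4, WRKY14 with WRKY35 and WRKY16 with WRKY52, neither gene was called. The difference in response within a pair was not tested.

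The table of transcription start groups, which adds up the transcripts that share a start, held 79 start groups of the 70 members, 45 of them tested. Of these, 20 were called higher and 1 lower, where 10.2% of all 20159 tested start groups were called higher and 7.34% lower. They belonged to 19 members called higher, all of which were also called higher in the gene table. WRKY26 had 2 start groups and both rose, 1 to 5.55 FPKM in CPL4RNAi against 0.731 FPKM in Col (q = 0.00982 in the authors' deposited table) and the other to 4.54 FPKM in CPL4RNAi against 1.85 FPKM in Col (q = 0.0348 in the authors' deposited table). WRKY57 was the gene called higher with no called start group. Its main start group had 3.60 FPKM in CPL4RNAi and 2.24 FPKM in Col (q = 0.204 in the authors' deposited table), and the other had 1.55 FPKM in CPL4RNAi and 0.00191 FPKM in Col (q = 0.464 in the authors' deposited table). The start groups of WRKY69 had log2 ratios of −0.86 and 0.30 and were not called.

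The promoters were read for the W-box core TTGAC, because WRKY genes are known targets of their own family. The 250 bases before the RefSeq gene start on TAIR10.1 are shown for the 3 called members with the largest ratios, 5′ to 3′ on the strand of the gene, with TTGAC, or GTCAA where it lies on the other strand, in capitals.
WRKY38, chr5:7496991-7497240, minus strand: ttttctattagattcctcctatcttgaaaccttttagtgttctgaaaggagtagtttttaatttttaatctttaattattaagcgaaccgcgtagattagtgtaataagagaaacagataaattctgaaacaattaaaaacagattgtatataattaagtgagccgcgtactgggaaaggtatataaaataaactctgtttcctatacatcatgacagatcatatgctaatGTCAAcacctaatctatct
WRKY46, chr2:19044956-19045205, minus strand: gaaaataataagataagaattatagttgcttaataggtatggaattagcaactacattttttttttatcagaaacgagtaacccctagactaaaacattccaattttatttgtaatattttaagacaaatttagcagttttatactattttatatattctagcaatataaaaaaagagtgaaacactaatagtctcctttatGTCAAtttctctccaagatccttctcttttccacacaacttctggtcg
WRKY48, chr5:20090398-20090647, plus strand: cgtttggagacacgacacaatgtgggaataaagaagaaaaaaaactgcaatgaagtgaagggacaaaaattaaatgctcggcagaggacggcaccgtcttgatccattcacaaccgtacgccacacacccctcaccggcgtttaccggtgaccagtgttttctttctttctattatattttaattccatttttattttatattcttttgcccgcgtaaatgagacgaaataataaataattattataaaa
WRKY38 and WRKY46 each had 1 match, beginning at base −19 and base −48 before the gene start, and WRKY48 had none in this window. The RefSeq starts of these genes lie upstream of their deposited loci, so the windows do not adjoin the loci used for FPKM. Among the 20 members called higher, 11 windows (55.0%) held TTGAC on either strand. The share was 57.1% of the 21 expressed members not called, 50.0% of the 28 not expressed and 44.9% of the windows of all 27443 protein-coding genes read. The longer forms TTGACC or TTGACT stood in 6 of the 20 windows of members called higher, in 10 of the 21 of expressed members not called and in 28.4% of all windows. WRKY11 had the most TTGAC matches of the members called higher, with 3, and windows of all 3 members of group IIa held 1 match between them, that of WRKY40. A match is a run of letters in a short window and says nothing of binding.

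The genes around WRKY factors were taken from a list of 13 protein kinases that act upstream of them, 3 partner proteins and 24 genes reported as targets. Of these 40 genes, 32 were tested, 17 were called higher and 1 was called lower, in a table where 12.7% of tested genes were called higher and 9.78% lower. The median log2 ratio of the tested ones was 0.52. The list was chosen with results of these data known, so its count is a description.

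Of the 13 kinases, 5 rose. They were the MAP kinase kinases MKK9 (log2 ratio 1.02), MKK5 (0.68) and MKK4 (0.66), the MAP kinase kinase kinase MEKK1 (0.41) and the calcium-dependent kinase CPK4 (0.49), with q from 6.39e-04 to 0.0263 in the authors' deposited table. MKK9 stood at 23.3 FPKM in CPL4RNAi and at 11.5 FPKM in Col. The MAP kinases at the end of the cascade, which phosphorylate WRKY33 and other members, were not called: MPK3 had 39.4 FPKM in CPL4RNAi and 44.9 FPKM in Col, MPK6 had 38.3 FPKM in CPL4RNAi and 33.7 FPKM in Col, and MPK4 had 26.1 FPKM in CPL4RNAi and 21.2 FPKM in Col. Of the partners, SIB1, a VQ protein that binds WRKY33, rose to 6.61 FPKM in CPL4RNAi, against 3.99 FPKM in Col (q = 0.0463 in the authors' deposited table). SIB2 and MKS1, which links WRKY33 to MPK4, were not called.

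Of the 24 targets, 16 were tested, and 11 rose and 1 fell. The largest log2 ratios were 4.55 for UPOX, a mitochondrial stress gene, 4.29 for the defence marker PR1 and 2.83 for SARD1, a regulator of salicylic acid synthesis. AOX1A, the alternative oxidase gene that WRKY40 represses and WRKY63 activates, rose to 108 FPKM in CPL4RNAi, against 31.1 FPKM in Col (3.46-fold, q = 6.39e-04 in the authors' deposited table). The smallest rises were those of PAD4 (log2 ratio 0.56), ACS6 (0.59) and PHO1 (0.61).

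Of the 3 camalexin genes, targets of WRKY33, 1 rose, 1 fell and 1 was not called. CYP71A12 had 4.16 FPKM in CPL4RNAi and 0.735 FPKM in Col and rose, CYP71A13 had 0.243 FPKM in CPL4RNAi and 1.28 FPKM in Col and fell, and PAD3 had 1.28 FPKM in CPL4RNAi and 1.59 FPKM in Col and was not called (authors' deposited table, q = 0.480). CYP71A12 and CYP71A13 are close relatives, and how reads were assigned between them was not tested. The flagellin marker FRK1, a target of WRKY6, WRKY22 and WRKY29, and the senescence marker SAG12 were under 1 FPKM in both genotypes. So were ABI4, ABI5, ACS2, ERF109, JAZ8 and NST2.

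**Figure D4:**
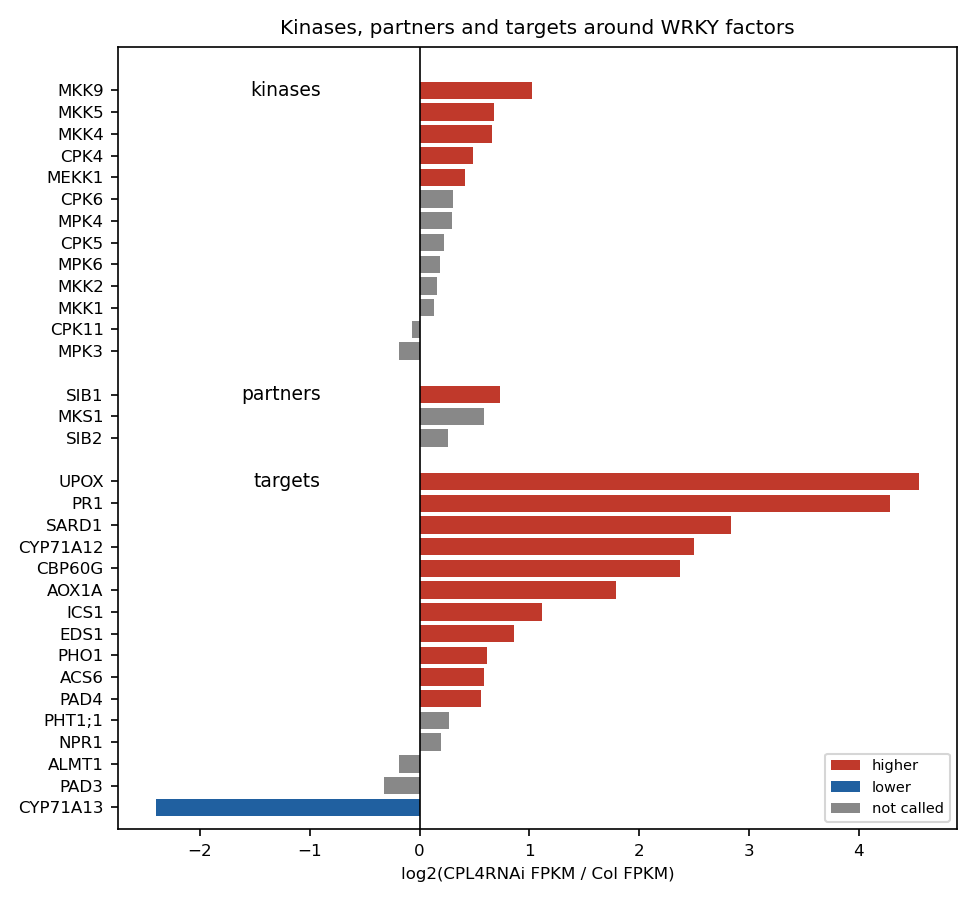
Log2 ratio of CPL4RNAi over Col for the 32 tested genes of the list, in blocks of kinases, partners and targets, coloured by the authors' call. Bars run from −2.40 for CYP71A13 to 4.55 for UPOX. The 3 MAP kinases MPK3, MPK4 and MPK6 lie at −0.19, 0.30 and 0.19 and were not called (q = 0.342, 0.118 and 0.333 in the authors' deposited table).

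Tissue markers were read beside these results. The 4 leaf markers summed to 19282 FPKM in CPL4RNAi and 23701 FPKM in Col, with 0 called higher and CAB1 called lower. CAB1 had 9631 FPKM in CPL4RNAi and 15003 FPKM in Col, while RBCS1A had 5823 FPKM in CPL4RNAi and 4637 FPKM in Col. RCA was also above its Col level, and LHCB2.1 was below it. The 4 root markers summed to 606 FPKM in CPL4RNAi and 601 FPKM in Col, with IRT1 called higher and CASP1 lower. Most of the root sum was PYK10, with 593 FPKM in CPL4RNAi and 589 FPKM in Col. The 3 seed storage markers summed to 12.6 FPKM in CPL4RNAi and 0.671 FPKM in Col, with CRA1 and CRU3 called higher. Their part in the WRKY results was not tested.

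The naming rule left out 2 genes that RefSeq lists as WRKY. ZAP1, also called WRKY1, had 13.7 FPKM in CPL4RNAi and 13.5 FPKM in Col and was not called (authors' deposited table, q = 0.943), and AT2G44745, WRKY12 in RefSeq, had 0.273 FPKM in CPL4RNAi and 0.287 FPKM in Col and was not tested.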

How the data were processed

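Total RNA of 6 libraries was depleted of ribosomal RNA, made into cDNA and sequenced as 100 bp read pairs, per the labels. The submitters' processing notes name TopHat2 2.0.14 and Cuffdiff 2.2.1.3, besides CASAVA 1.8.2, SAMtools and Trim Galore 0.4.0, and build TAIR10; options, strand use and library depth are unknown here. The authors' deposited tables hold FPKM per gene and per start group, 1 value per genotype, with a p-value and q-value. The deposited coverage table was not used here.

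Log2 ratios of CPL4RNAi over Col were recomputed from FPKM with no pseudocount, since some rows of the deposited column show a spreadsheet error. No test was added. Subgroups, pathway genes and markers are hand-written lists matched by locus. Values were to be given for members called with at least a 2-fold change or called lower, the 5 highest, those next to 1 FPKM, and groups IIa and III, and for the extremes of the called pathway genes; values of further members were added after they were seen. Members and lists were chosen with earlier results of these data known. Sequences came from RefSeq TAIR10.1, where all 70 members were found by locus identifier. Gene limits can differ there, since the RefSeq start equalled the deposited one for 12793 of 32809 genes found in both. Identity is relative to the shorter protein in a global BLOSUM62 alignment. Deposited locus starts count from 0 and are given from 1. The rule of calls was run on simulated rows whose q was set to match the known calls. That run checks the code of the rule only. Python 3.11.15, pandas 2.3.3, numpy 2.4.6, Biopython 1.88 and matplotlib 3.10.9 were used.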

Additional observations from a re-analysis of the deposited data

How the results depend on the processing

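The 20 members called higher numbered 11 when at least a 2-fold change was also required, and the 1 called lower became 0 there and 0 with a floor of 5 FPKM, which left 25 members expressed instead of 42. With q under 0.01 the list of kinases, partners and targets had 0 genes called lower instead of 1. The median log2 ratio of the expressed members was 0.43 on the log2(FPKM + 1) scale, which understates the change of low genes, instead of 0.57. Members called higher ranged from 15 to 22 under the other alternatives. These were q under 0.01, unadjusted p under 0.05, floors of 0.5 and 5 FPKM, no floor, start groups, and 2 chosen after seeing the data. The latter were at least 1 FPKM in both genotypes and leaving out members whose locus holds another gene. A floor of 0.5 FPKM or no floor could not change the calls, because no gene under 1 FPKM was tested. For q under 0.01, unadjusted p and a floor of 5 FPKM, the share of all genes called was not computed. The direction of the 21 called members could not change on the log2(FPKM + 1) scale, since adding 1 keeps the sign of a ratio. Nor could it change on subtracting the median of all tested genes, which was −0.003. The called log2 ratio nearest to it was 0.40. These settings are therefore no check of direction.

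No paired analysis was possible because the deposited tables hold 1 value per genotype; leaving out single libraries could not be done for the same reason. Low levels limit the ratios of the 6 members that stood under 1 FPKM in Col, WRKY38, WRKY46 and WRKY48 among those called and WRKY28, WRKY50 and WRKY51 among those not called.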
